A study of Rattus norvegicus with 16 samples.

Results

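The enzymes that commit glucose to glycolysis, and those that build and break down glycogen, were followed in the neonatal rat retina under cyclic hyperoxia, a model of oxygen-induced retinopathy. The list held 10 genes: the hexokinases Hk1 and Hk2, the isomerase Gpi, the phosphofructokinases Pfkl, Pfkm and Pfkp, the regulatory enzyme Pfkfb3, the aldolase Aldoc, the glycogen phosphorylase Pygl and the glycogen synthase Gys1. Members were taken by gene symbol, from array probe sets whose platform annotation gives that symbol alone. This found 9 of the 10, each with 1 probe set, among 14324 genes measured; no probe set carried the symbol Hk1, which is not described further. Retinal RNA came from 2 strains, F344 and Sprague Dawley (SD), of which SD is generally known as susceptible to the retinopathy and F344 as resistant. Litters in the cyclic hyperoxia groups entered an oxygen chamber with their mothers no later than 12 h after birth, where 80% and 21% oxygen alternated in periods of 24 h, and room air litters of the same age were the controls. Retinae were taken on post-natal day 5 or day 6. The 8 groups (F344 or SD, cyclic hyperoxia or room air, day 5 or day 6) held 2 arrays each, and every array held RNA pooled from several rats. The design text speaks of 3 rats and 2 litters for the pools without saying whether this is per pool, so p-values reflect just the spread between pools. The arrays of a group are called pool 1 and pool 2. The labels do not say which oxygen level the rats had breathed last on either day.

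Glucose entering a cell is phosphorylated by hexokinase, the product is isomerised by Gpi, and phosphofructokinase adds the second phosphate in the step that commits the sugar to glycolysis. Pfkfb3 makes fructose bisphosphate of the regulatory kind, the strongest activator of phosphofructokinase, and aldolase then splits the sugar. Phosphorylase releases glucose units from glycogen at the top of the same route, and glycogen synthase works in the opposite direction. Several of these genes, among them Hk2 and Pfkfb3, are known targets of the hypoxia-inducible factors, which are degraded when oxygen is plentiful, and the retina is known for high glycolysis even in oxygen.

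Promoters of 4 members are shown because 3 of them, Pfkfb3, Pfkl and Pygl, carried the day-dependent oxygen effects described below, while Pfkm was not called in any comparison. Each run is the 250 bases upstream of the start site in RefSeq's table for assembly GRCr8, 5' to 3' on the gene's strand. Capitals mark ACGTG or GCGTG, the core of the hypoxia response element, on either strand; on the reverse strand they read CACGT and CACGC, and 2 overlapping matches merge into CACGTG.
Pfkfb3, chr17:71944683-71944932, plus strand: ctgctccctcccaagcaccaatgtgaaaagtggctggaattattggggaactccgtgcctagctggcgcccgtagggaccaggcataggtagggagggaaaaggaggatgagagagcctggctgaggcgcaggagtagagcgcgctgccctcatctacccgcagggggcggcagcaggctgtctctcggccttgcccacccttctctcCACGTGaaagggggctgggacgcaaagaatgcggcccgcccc
Pfkl, chr20:10663715-10663964, plus strand: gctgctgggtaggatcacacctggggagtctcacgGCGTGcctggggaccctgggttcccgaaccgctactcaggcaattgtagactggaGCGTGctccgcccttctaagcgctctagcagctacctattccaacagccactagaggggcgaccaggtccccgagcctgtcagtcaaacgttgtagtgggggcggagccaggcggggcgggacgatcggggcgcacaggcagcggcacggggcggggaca
Pygl, chr6:94476220-94476469, minus strand: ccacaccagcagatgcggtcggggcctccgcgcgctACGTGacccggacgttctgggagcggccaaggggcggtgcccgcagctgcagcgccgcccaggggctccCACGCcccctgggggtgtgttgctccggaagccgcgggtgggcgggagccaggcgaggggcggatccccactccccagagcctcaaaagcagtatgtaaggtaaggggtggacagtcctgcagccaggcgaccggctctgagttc
Pfkm, chr7:131113849-131114098, plus strand: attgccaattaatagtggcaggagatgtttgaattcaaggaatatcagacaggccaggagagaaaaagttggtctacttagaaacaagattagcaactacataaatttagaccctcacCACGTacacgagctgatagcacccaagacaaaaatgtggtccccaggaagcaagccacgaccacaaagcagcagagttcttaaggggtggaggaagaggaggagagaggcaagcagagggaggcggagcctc
Either motif was present in 36.7% of all 33469 windows of this length, ACGTG in 16.6% and GCGTG in 25.9%, some windows holding both. The palindrome CACGTG of the Pfkfb3 window, which starts 42 bases upstream of the listed start site, was found in 5.59% of windows. Of the 9 measured members, 7 had at least 1 match. The windows of Hk2 and Gpi had none, and that of Pfkm had 1. Genes can have other start sites that these windows do not cover. The Pfkfb3 window lies inside the span listed for the gene (71893320 to 71974526), as does that of Pfkm (131100684 to 131138250) and that of Gpi (95965389 to 95996932). Starts further upstream in these genes were not examined.

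Deposited array medians lay between 5.452 and 5.524 on the log2 scale, and arrays of the same group correlated across genes with r between 0.987 and 0.996. In F344 hyperoxia on day 6, pool 2 stood apart, with the lowest interquartile range (2.813) and the highest median, so day 6 results are also given without it. Of 12 measured neural retina markers, 11 lay above the median gene (6.14), led by Pax6 at 11.03. Of the 12, 1 was called with exposure, Nrl, which rose on day 6. Its change was 0.57 in SD (limma adjusted p = 0.021, beside 2.23% of all genes) and 0.32 over both strains (adjusted p = 0.034, beside 4.01%). Skeletal muscle, a source of Pfkm and Hk2 RNA, was close to background: the mean of its 7 measured markers lay between 4.69 and 4.93 in the 8 groups, and the highest, Acta1, averaged 6.18. Lens, pigment epithelium, erythroid, microglia and astrocyte lists averaged between 4.69 and 5.61 in every group, but single markers moved with exposure. Of 5 measured erythroid markers 1 was called, the haemoglobin Hbb. It fell in F344 on day 5 (group means 6.32 against 7.51, limma adjusted p = 0.0152, beside 0.126% of all genes). In SD on day 5 it averaged 7.10 in hyperoxia against 6.92 in room air. Of 6 measured microglial markers 2 rose over both strains on day 6, beside 4.01% of all genes: Aif1 (0.29, adjusted p = 0.0373) and C1qa (0.53, adjusted p = 0.017). The others were not called. Csf1r (5.99 against 6.16 in F344, 5.96 against 6.16 in SD), Cx3cr1 and Trem2 read lower under hyperoxia that day in both strains, and P2ry12 higher. Of the 5 measured endothelial markers 1 was called, Tek, a receptor of the vessel wall. Over both strains Tek fell on day 5 (-0.79, adjusted p = 0.00235, beside 0.209% of all genes) and on day 6 (-0.56, adjusted p = 0.0107, beside 2.73%). Within a strain it was called in F344 on day 5 (-0.88, adjusted p = 0.0328, beside 0.126%) and in SD on day 6 (-0.81, adjusted p = 0.0151, beside 0.565%). On day 5 the mean of the 5 was 4.68 in F344 hyperoxia against 5.03 in room air, and 4.72 against 5.06 in SD. On day 6 it was 5.10 against 5.16 in F344 and 4.90 against 5.26 in SD. Their part in the results was not tested, and in whole retina fewer cells of a type and less RNA per cell cannot be told apart.

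**Figure D1:**
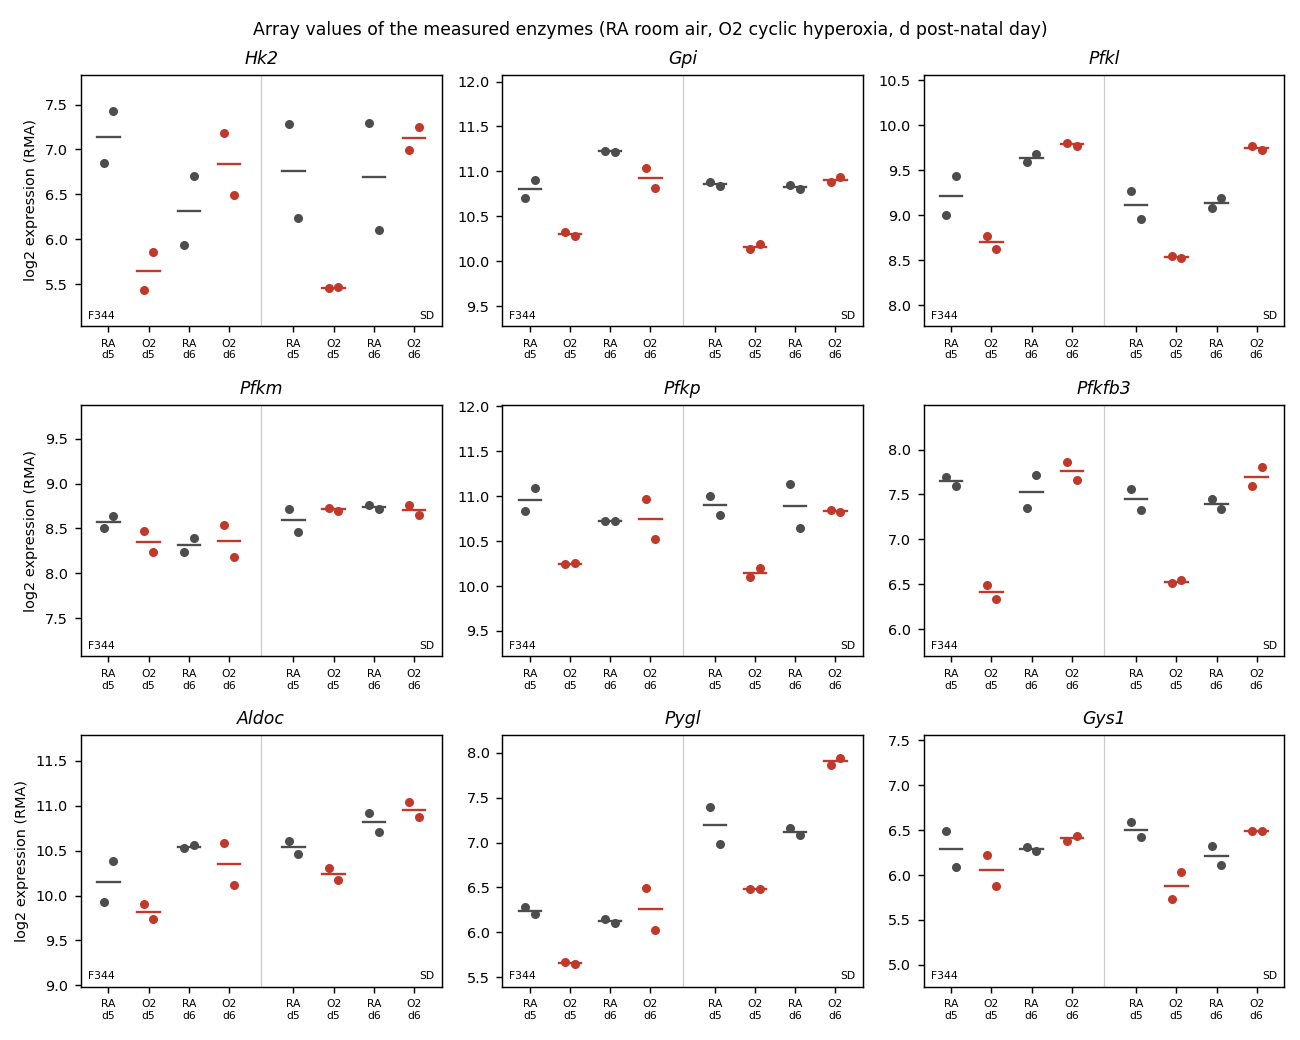
Log2 expression (RMA) of the 9 measured enzymes on every array; dots are arrays, bars are group means, grey is room air and red is cyclic hyperoxia, with F344 left and SD right of the line in each panel and axes spanning 2.8 log2 units in all panels. The hyperoxia arrays of day 5 are the lowest of their strain for Pfkfb3, Gpi, Pfkp and Pygl, while the arrays of Pfkm stay within 8.19 and 8.77.

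On day 5, hyperoxia lowered 6 of the 9 members when both strains were averaged, from the first step of the pathway to the glycogen branch: Hk2, Gpi, Pfkl, Pfkp, Pfkfb3 and Pygl. None rose, and the median member changed by -0.60 on the log2 scale against 0.01 for all genes. Of all genes, 0.209% fell by the same limma test (adjusted p under 0.05 over all genes). In each strain alone fewer passed: Gpi and Pfkfb3 in SD, where 0.0628% of all genes fell, and Pfkfb3 in F344, where 0.126% did. The direction was wider than the calls. Hyperoxia arrays lay below room air arrays with no overlap for 8 of 9 members in SD (21.5% of all genes) and for 8 of 9 in F344 (20.3%), the exceptions being Pfkm and Gys1 in that order.

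Hk2, the hexokinase bound to mitochondria in growing and hypoxic cells, had the largest shift and the poorest precision. In F344 it read 6.85 and 7.43 in room air and 5.44 and 5.86 in hyperoxia. In SD it read 7.28 and 6.24 in room air and 5.45 and 5.47 in hyperoxia. The hyperoxia arrays of both strains sat close to the array medians, where background limits how low a value can read, and the SD room air pools lay 1.04 apart. Averaged over strains Hk2 fell 2.63-fold on day 5 (log2 change -1.40 ± 0.27 SE, n = 2 arrays per group, limma adjusted p = 0.0452). The change was -1.30 in SD (adjusted p = 0.391) and -1.49 in F344 (adjusted p = 0.23), neither past the threshold. Each of the 16 arrays was left out in turn, and the averaged call held in 5 of these leave-one-out fits. It was lost without any 1 F344 pool of day 5, F344 room air pool of day 6 or SD hyperoxia pool, or without pool 1 of SD room air on day 5, with changes between -1.66 and -1.14. It was also lost with every probe set tested (adjusted p = 0.0885) and with a trended, robust prior (adjusted p = 0.06).

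Gpi, which interconverts the phosphates of glucose and fructose, showed a smaller but tighter change. It read 10.71 and 10.91 in F344 room air against 10.32 and 10.28 in hyperoxia, and 10.88 and 10.83 in SD room air against 10.13 and 10.19 in hyperoxia. The 4 hyperoxia arrays lay below the 4 room air arrays. The fall over both strains was 1.52-fold (-0.60 ± 0.08 SE, limma adjusted p = 0.00142), and every leave-one-out fit called it. In SD alone it was 1.62-fold (-0.70 ± 0.11, adjusted p = 0.0229), in F344 the change was -0.51 (adjusted p = 0.157). The SD call was lost without any SD array of day 5, any SD hyperoxia array of day 6 or any F344 room air array of day 6.

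Of the phosphofructokinase subunits, 2 of 3 were called on day 5. Pfkp, the platelet type, read 10.83 and 11.09 in F344 room air and 10.25 on both hyperoxia arrays. In SD it read 11.00 and 10.80 against 10.10 and 10.20. Pfkl, the liver type, read 9.00 and 9.43 against 8.77 and 8.62 in F344, and 9.27 and 8.96 against 8.55 and 8.52 in SD. The exposures did not overlap for either gene in either strain. Over both strains Pfkp fell 1.66-fold (-0.73 ± 0.12 SE, n = 2 arrays per group, limma adjusted p = 0.0112) and Pfkl 1.46-fold (-0.55 ± 0.10, adjusted p = 0.028). Pfkm, the muscle type, gave -0.05 ± 0.10 (95% confidence interval -0.25 to 0.16, adjusted p = 0.893). In F344 its hyperoxia arrays, at 8.47 and 8.23, lay below room air, at 8.50 and 8.64, with no overlap (-0.22, adjusted p = 0.716). In SD they overlapped, at 8.73 and 8.69 against 8.72 and 8.46 (0.12, adjusted p = 0.828). Whether the subunits differ in their change is tested below.

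The Pfkp call was lost without either hyperoxia array of day 5 of either strain or pool 1 of SD room air on day 5. The Pfkl call held in 6 of 16 fits. It was lost without any of those 5 arrays, pool 2 of F344 room air on day 5, any F344 room air pool of day 6 or any SD hyperoxia pool of day 6. With every probe set tested its adjusted p was 0.0548, and with only the day 5 arrays 0.0942.

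Pfkfb3, the kinase that sets the activator of phosphofructokinase, was the member with the smallest p on day 5. It read 7.70 and 7.60 in F344 room air and 6.49 and 6.34 in hyperoxia. In SD it read 7.56 and 7.33 in room air and 6.51 and 6.55 in hyperoxia. The 4 hyperoxia arrays lay below the 4 room air arrays with no overlap. The fall was 2.35-fold in F344 (-1.23 ± 0.14 SE, n = 2 arrays per group, limma adjusted p = 0.00133), and this call held in every leave-one-out fit. In SD it was 1.89-fold (-0.92 ± 0.14, adjusted p = 0.0148), a call lost without either SD hyperoxia pool of day 5 or pool 1 of its controls. Averaged over strains Pfkfb3 fell 2.11-fold (-1.07 ± 0.10, adjusted p = 4.31e-05).

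Downstream, Aldoc, the aldolase of brain and glia, gave -0.32 over both strains (adjusted p = 0.342), at 9.92 and 10.38 against 9.90 and 9.74 in F344 and at 10.61 and 10.47 against 10.30 and 10.18 in SD. In the glycogen branch, Pygl, the liver-type phosphorylase, read 6.28 and 6.20 in F344 room air against 5.68 and 5.65 in hyperoxia. In SD it read 7.39 and 6.99 against 6.49 and 6.48. The F344 hyperoxia arrays lay close to the array medians, so background limits how low they can read. It fell 1.56-fold over both strains (-0.64 ± 0.11 SE, limma adjusted p = 0.0138), a call lost without either hyperoxia array of day 5 of either strain or without pool 1 of either room air group of day 5. In SD alone its change of -0.71 was not called (adjusted p = 0.245), but passed without either F344 hyperoxia pool of day 6 (adjusted p = 0.0403), which changes only the spread. Gys1, which extends glycogen, changed by -0.43 (adjusted p = 0.156): -0.62 in SD, where its arrays did not overlap, and -0.24 in F344, where they did.

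**Figure D2:**
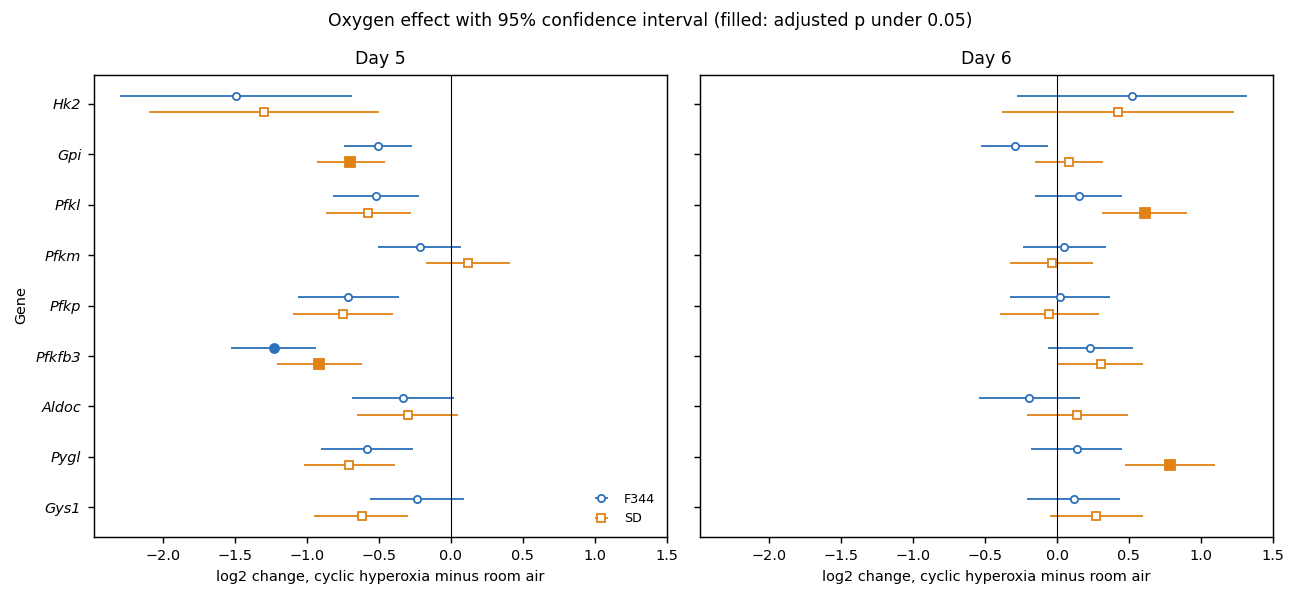
Log2 change from room air to cyclic hyperoxia of the 9 enzymes on day 5 (left) and day 6 (right), with 95% confidence intervals of the moderated fit; blue circles are F344, orange squares SD, filled where the adjusted p was under 0.05. On day 5, 17 of 18 estimates lie below 0, and on day 6 the filled points are Pfkl and Pygl in SD.

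On day 6 no member was called lower with all arrays, and 2 members rose in SD. Pygl read 7.87 and 7.95 in SD hyperoxia against 7.16 and 7.08 in room air, and these were the highest Pygl values of the series. It rose 1.72-fold (0.79 ± 0.15 SE, n = 2 arrays per group, limma adjusted p = 0.0162). Pfkl read 9.77 and 9.72 against 9.08 and 9.19 and rose 1.52-fold (0.61 ± 0.14, adjusted p = 0.0309). Of all genes, 2.23% rose in this comparison. Hyperoxia arrays were higher with no overlap for 5 of 9 members, against 25.3% of genes; the other 3 were Gpi, Pfkfb3 and Gys1. Both calls were lost without any 1 of the 4 SD arrays of day 6, with changes between 0.75 and 0.83 for Pygl and between 0.56 and 0.66 for Pfkl.

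In F344 on day 6, limma called 0 of 9 members in either direction, with 1 at an unadjusted p under 0.05, while 0.342% of all genes rose and 0.845% fell. Pygl read 6.50 and 6.02 in hyperoxia against 6.15 and 6.10 in room air (0.14, adjusted p = 0.675). Pfkl read 9.81 and 9.77 against 9.59 and 9.68 (0.15, adjusted p = 0.61), and Pfkl and Gys1 were the 2 members with hyperoxia arrays higher and no overlap (20.7% of genes). Gpi was the member with the unadjusted p under 0.05: it read 11.04 and 10.82 in hyperoxia against 11.22 on both room air arrays (-0.29, adjusted p = 0.183). Without pool 1 of that hyperoxia group Gpi was called lower (-0.41, adjusted p = 0.0439). Without pool 2, the array that stood apart, 0 members were called.

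Over both strains on day 6, Pygl (0.46 ± 0.11 SE, adjusted p = 0.0195) and Pfkl (0.38 ± 0.10, adjusted p = 0.034) rose, beside 4.01% of all genes. Pygl was lost without any F344 room air or SD hyperoxia array of day 6. Pfkl held in 8 of 16 fits and was lost without any of those 4 arrays, the array that stood apart, pool 1 of SD room air on day 6 or either SD hyperoxia pool of day 5. Pfkfb3 changed by 0.27 (adjusted p = 0.107), Hk2 by 0.47 (adjusted p = 0.305), Pfkp by -0.02 (adjusted p = 0.952) and Pfkm by 0.01 (adjusted p = 0.975).

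The oxygen effect itself was compared between days, which leaves out the age difference shared with room air. All 9 members had a more positive effect on day 6 than on day 5 over both strains, with a median difference of 0.71 against -0.01 for all genes, and 3 passed the test, beside 0.182% of all genes. They were Pfkfb3 (1.34 ± 0.14 SE, n = 2 arrays per group, limma adjusted p = 0.000142), Pygl (1.10 ± 0.15, adjusted p = 0.00207) and Pfkl (0.93 ± 0.14, adjusted p = 0.00578). Each of the 3 was called in every leave-one-out fit. Without the array that stood apart, 6 members were called, the others being Hk2 (2.04, adjusted p = 0.045), Gpi (0.56, adjusted p = 0.0434) and Pfkp (0.82, adjusted p = 0.0373). Without pool 1 of SD room air on day 6 the count was 5, with Hk2 (2.17, adjusted p = 0.00853) and Pfkp (0.84, adjusted p = 0.0328).

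With all arrays, Hk2 had the largest day difference of the members but did not pass (1.87 ± 0.38, adjusted p = 0.0762); it passed with median-centred arrays (1.91, adjusted p = 0.0248) and with dim genes filtered out (adjusted p = 0.0441), and without pool 2 of SD room air on day 5 (2.13, adjusted p = 0.0211). Gpi gave 0.50 (adjusted p = 0.122), Pfkp 0.71 (adjusted p = 0.147), Gys1 0.62 (adjusted p = 0.186), Aldoc 0.29 (adjusted p = 0.683) and Pfkm 0.06 (95% confidence interval -0.24 to 0.35).

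In SD alone the day difference was called for Pygl (1.49, adjusted p = 0.00781), Pfkfb3 (1.22, adjusted p = 0.0155) and Pfkl (1.18, adjusted p = 0.021), beside 0.112% of all genes. All 3 calls were lost without any 1 of the 4 SD hyperoxia arrays. Those of Pfkl and Pfkfb3 were also lost without pool 1 of SD room air on day 5 or pool 2 of SD room air on day 6, and that of Pfkl without the latter's partner. Gpi (0.78, adjusted p = 0.125) joined without either F344 hyperoxia pool of day 6 (adjusted p = 0.0409). In F344 only Pfkfb3 passed (1.46, adjusted p = 0.00607), beside 0.272% of all genes, and it reached an adjusted p of 0.0531 without pool 1 of F344 room air on day 6. Pygl gave 0.72 there (adjusted p = 0.115) and Pfkl 0.67 (adjusted p = 0.115). Pygl was called without the array that stood apart (0.95, adjusted p = 0.0341). Hk2 (2.01, adjusted p = 0.0838) was called without either SD room air pool of day 6 (adjusted p = 0.0423). The comparisons within a strain share arrays with the average over strains.

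Isozymes of 1 reaction were set against each other on the same array, as the log2 difference between them, so that array-wide shifts cancel. The levels of different probe sets cannot be compared, and only the change of the difference with exposure was read. There were 5 pairs, with p-values from an exact two-sided permutation of exposure within strain and day, adjusted over the pairs. For a single day the 36 arrangements allow no p under 0.0556. For the difference between days the smallest possible p is 0.00154. The null of this test is no oxygen effect, on either day, on the difference between the isozymes. A small p therefore does not by itself show that this effect differs between days.

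Pygl was compared with Pygb, the brain-type phosphorylase. Pygl minus Pygb changed with hyperoxia by -0.67 in SD and -0.92 in F344 on day 5, and by 1.03 in SD and 0.50 in F344 on day 6. The difference between days was 1.56 (exact permutation p = 0.00154, the smallest possible, adjusted p = 0.00772). Pygb itself was not called in any oxygen effect. Its pools lay more than 0.5 apart in 2 groups, F344 room air on day 5 (7.43 and 7.98) and F344 hyperoxia on day 6 (8.18 and 7.53). Its residual SD of 0.23 was at the 91.12th percentile of all genes. Its change over both strains was 0.15 on day 5 (95% confidence interval -0.13 to 0.44) and -0.30 on day 6 (-0.59 to -0.02, adjusted p = 0.185).

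Among the phosphofructokinases, Pfkl minus Pfkm changed by -0.70 in SD and -0.30 in F344 on day 5 and by 0.65 and 0.10 on day 6, a difference between days of 0.87 (exact permutation p = 0.00463, adjusted p = 0.0116). Pfkp minus Pfkm changed by -0.87 and -0.49 on day 5 and by -0.02 and -0.03 on day 6, a difference of 0.66 (exact permutation p = 0.0386, adjusted p = 0.0482). Pfkp minus Pfkl changed by -0.18 in SD and -0.19 in F344 on day 5. On day 6 it changed by -0.66 in SD and -0.13 in F344, and its difference between days of -0.21 did not pass (exact permutation p = 0.491). No single-day value of the 5 pairs could pass, and the smallest adjusted p was 0.0694 on day 5 and 0.278 on day 6.

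Aldoc minus Aldoa, the aldolase of muscle and most tissues, changed by 0.33 in SD and 0.00 in F344 on day 5 and by -0.09 and -0.15 on day 6, with a difference between days of -0.29 (exact permutation p = 0.0386, adjusted p = 0.0482). Aldoa changed by -0.48 over both strains on day 5 (limma adjusted p = 0.081) and Aldoc by -0.32. The Pygl minus Pygb and Pfkl minus Pfkm calls held in every leave-one-out fit. The Pfkp minus Pfkm call held in 2 of 16, without pool 1 of F344 or of SD room air on day 6, and adjusted p-values reached 0.116. The Aldoc minus Aldoa call held in 3 of 16, without pool 2 of F344 hyperoxia on day 5, pool 1 of SD hyperoxia on day 6 or pool 2 of SD room air on day 6, and reached 0.137.

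**Figure D3:**
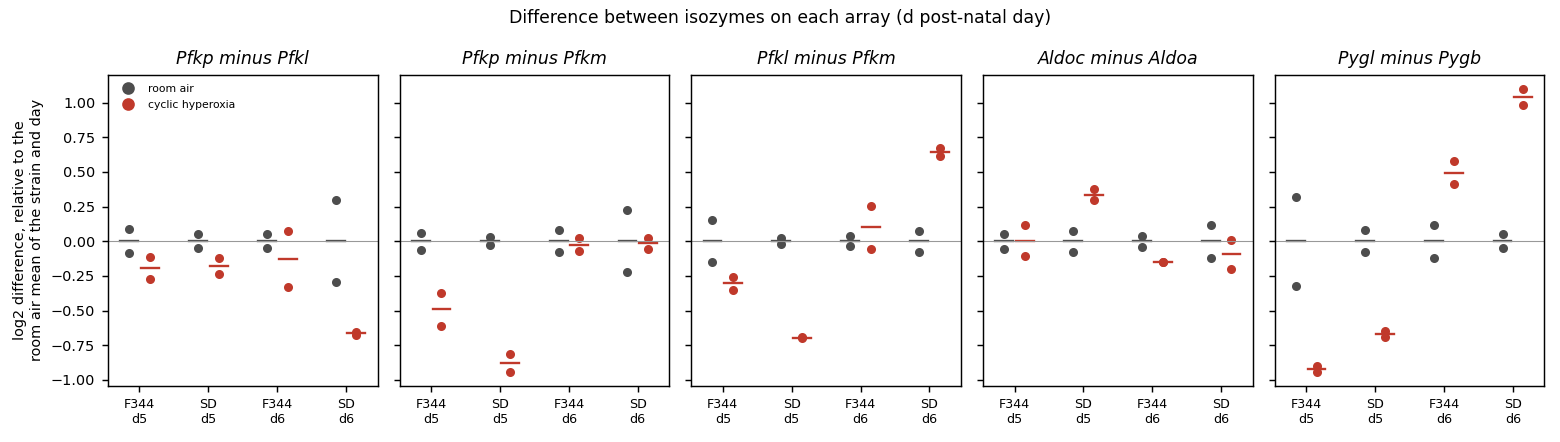
Log2 difference between isozymes on each array, relative to the room air mean of the same strain and day; grey is room air, red cyclic hyperoxia, bars are means of 2 arrays. Pygl minus Pygb goes from below 0 on day 5 to above 0 on day 6 in both strains, and Pfkp minus Pfkm has means near 0 on day 6.

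Whether the strains respond unequally was tested as the difference of their oxygen effects. On day 5 limma called 0 of 9 members and 0 of all 14324 genes, with 0 members at an unadjusted p under 0.05. The largest member differences were -0.38 for Gys1 (95% confidence interval -0.84 to 0.08), 0.34 for Pfkm (-0.07 to 0.75) and 0.31 for Pfkfb3 (-0.10 to 0.73). On day 6, 0 of 9 members were called, beside 0.0489% of all genes called with a more positive effect in SD. Unadjusted p-values under 0.05 were reached by 3: Pygl (0.65, 95% confidence interval 0.20 to 1.10, adjusted p = 0.223), Pfkl (0.46, 0.04 to 0.88, adjusted p = 0.38) and Gpi (0.38, 0.05 to 0.71, adjusted p = 0.354). Without pool 1 of F344 hyperoxia on day 6 the Pygl difference was called (0.89, adjusted p = 0.0426). The rises of Pygl and Pfkl called in SD and not in F344 are therefore not shown to differ between the strains with all arrays.

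In room air, the strains differed in 1 member. Pygl read 7.39 and 6.99 on day 5 and 7.16 and 7.08 on day 6 in SD, against 6.28 and 6.20, and 6.15 and 6.10, in F344. All 4 SD arrays were above all 4 F344 arrays. The difference was 1.96-fold (0.97 ± 0.11 SE, n = 2 arrays per group over 2 days, limma adjusted p = 4.77e-05), in a comparison in which 4.02% of all genes were higher and 5.33% lower in SD, and it was called in every leave-one-out fit. The hyperoxia arrays kept this order, with the lowest SD array at 6.48 on day 5 and 7.87 on day 6 and the highest F344 array at 5.68 and 6.50. Aldoc was 0.33 higher (adjusted p = 0.0945) and Pfkl 0.30 lower (-0.30, adjusted p = 0.0668) in SD room air, neither called. Aldoc passed with median-centred arrays (0.39, adjusted p = 0.0349), or without pool 2 of F344 room air on day 5 or either F344 hyperoxia array of day 6. Pfkl passed without pool 1 of either room air group of day 5. Hk2 differed by 0.00 (95% confidence interval -0.57 to 0.57).

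Between day 5 and day 6 in room air limma called 0 of 9 members, with 3 at an unadjusted p under 0.05, beside 1.29% of all genes called higher and 1.71% lower on day 6. Those 3 were Aldoc (0.33, adjusted p = 0.156), Gpi (0.19, adjusted p = 0.25) and Pfkl (0.22, adjusted p = 0.292). Aldoc was called without pool 2 of F344 room air on day 5 (0.45, adjusted p = 0.043).

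Hk2 stood apart from the other members in how far the 2 pools of a group differed. Its pools lay more than 0.5 apart in 5 of 8 groups, which no other member did in any group. The largest gap was 1.19, in SD room air on day 6 (7.29 and 6.10). The SD room air pools of day 5 were 1.04 apart, and those of SD hyperoxia on day 5 read 5.45 and 5.47. Its residual SD of 0.51 was at the 99.94th percentile of all genes, against 0.08 for Gpi (7.756th), 0.14 for Pfkfb3 and 0.19 for Pfkp. The array with the higher Hk2 also had the higher Pfkp in 6 of 8 groups, the higher Gpi and Pfkfb3 in 6 each, and the higher Pfkl, Pygl and Gys1 in 4 each.

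**Figure D4:**
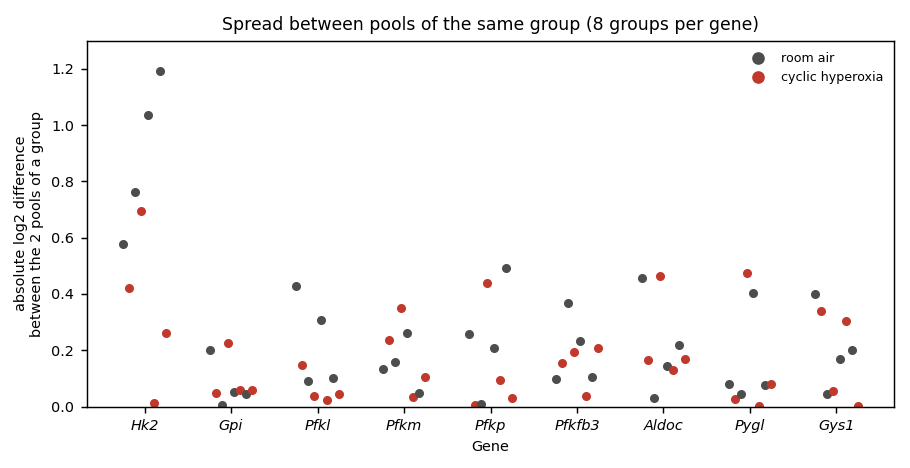
Absolute log2 difference between the 2 pools of each group for the 9 enzymes; each dot is 1 of the 8 groups, grey room air and red cyclic hyperoxia. Hk2 reaches 1.19, while no dot of another enzyme exceeds 0.49.

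Across the 8 group means most members ran in a common pattern. Hk2 and Pfkp (r = 0.95), Hk2 and Pfkfb3 (0.93), Pfkp and Pfkfb3 (0.91) and Gpi and Pfkl (0.88) were among the closest pairs. Aldoc and Pygl correlated at 0.87, and Gpi and Pygl at 0.28. Pfkm correlated with Pfkl at -0.26, with Gpi at -0.25 and with Pfkfb3 at 0.00. The genes most like Pfkfb3 among all measured were Vegfa (r = 0.975), the main angiogenic factor of the retina, Pdk1 (0.967), which restrains pyruvate oxidation, and Slc16a3 (0.964), a lactate exporter. Closest to Hk2 was P4ha1 (0.973), a collagen prolyl hydroxylase, and closest to Pfkl were the glycolytic enzymes Tpi1 (0.981) and Aldoa (0.959). Closest to Gpi was Timp3 (0.966), and Vegfa was also among its nearest (0.95). P4ha1 was second closest to Pfkp (0.98). Closest to Pygl were the neuropeptide Npy (0.96), Tyrp1 (0.953), a pigment cell enzyme and one of the pigment epithelium markers, and Tsnaxip1 (0.952). Tyrp1 averaged 6.81 and 6.89 in SD room air on day 5 and day 6 against 6.32 and 6.33 in F344, and was highest in SD hyperoxia on day 6 (7.22). The mean of the 6 measured pigment epithelium markers in SD on day 6 was 5.45 in hyperoxia against 5.47 in room air. Rpe65 (4.22 against 4.71), Lrat and Mitf read lower under hyperoxia there, and Best1 and Rgr higher. The part of Tyrp1 in the Pygl results was not tested. The 8 points share arrays, normalization and controls, and the values are descriptions.

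Few other genes of the pathway were called. A list of 43 further genes of upper glycolysis and glycogen metabolism (other hexokinases, phosphofructokinase regulators, aldolases, phosphorylases and their kinase, branching and debranching enzymes, phosphoglucomutases and glycogen-targeting subunits) had 33 measured. On day 5 over both strains 0 were called in either direction by limma, with 3 at an unadjusted p under 0.05, and their median change was -0.02. On day 6 over both strains 1 of 33 rose and 0 fell, with a median of 0.02, no larger a share than the 4.01% of all genes that rose. The one was Tigar, a fructose bisphosphatase that opposes Pfkfb3 (0.36 ± 0.10 SE, adjusted p = 0.0424). It averaged 6.96 in F344 hyperoxia against 6.60 in room air, and 6.71 against 6.35 in SD. Its call held in 5 of 16 leave-one-out fits, those without the array that stood apart or without a room air pool of day 5. The muscle phosphorylase Pygm averaged between 4.90 and 5.39, below the array medians, in every group.

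In room air 3 of the 33 were higher and 1 lower in SD, where 4.02% of all genes were higher and 5.33% lower. They are named here after their values were seen. They were Ugp2, which makes the glucose donor of glycogen synthesis (0.51, adjusted p = 0.0247), Gyg1, the glycogen primer (0.39, adjusted p = 0.0436), Phkb, a subunit of phosphorylase kinase (0.32, adjusted p = 0.042), and the glucose phosphate carrier Slc37a4 (-0.52, adjusted p = 0.0153). Leaving out pool 2 of any room air group ended all 4 calls, and of the leave-one-out fits 11 called Ugp2, 6 Gyg1, 5 Phkb and 12 Slc37a4. Among 9 lower glycolysis genes, Pgk1 fell in F344 on day 5 (-0.85, adjusted p = 0.0217, beside 0.126% of all genes). This call was lost with only the arrays of the groups compared (adjusted p = 0.224). The oxygen effect of Pgk1 differed between days over both strains (0.78, adjusted p = 0.0293, beside 0.182%), but not with every probe set tested (adjusted p = 0.051). That day difference was called in 6 of 16 leave-one-out fits. Ldhb was lower in SD than in F344 in room air (-0.51, limma adjusted p = 0.00903, beside 5.33%). This strain difference was called in 16 of 16 leave-one-out fits. Under hyperoxia Ldhb rose in SD on day 6 (0.69, adjusted p = 0.0286, beside 2.23%). Over both strains, 1 of the 9 fell on day 5 (Pgk1, -0.59, adjusted p = 0.0141) beside 0.209% of all genes. On day 6, 1 rose (Ldhb, 0.40, adjusted p = 0.0406), beside 4.01%. Pgk1 was lost without pool 2 of either hyperoxia group of day 5, pool 1 of F344 room air of that day or either SD control pool. The Ldhb rise over both strains was lost with every probe set tested (adjusted p = 0.0506), a trended, robust prior (0.0517), only the arrays compared (0.083) and the replicate block (0.0501). It held in 7 of 16 leave-one-out fits: it was lost without any pool of F344 room air on day 6 or of SD on day 5, or without pool 1 of any other group of day 6.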

How the data were processed

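The authors deposited log2 expression values of 27342 probe sets on 16 Affymetrix gene arrays, made with Partek 6.4 and RMA per the submitters' processing notes. RMA corrects background, quantile-normalizes across arrays and summarises each probe set, so a shift shared by most genes would not show. Probe sets with 1 gene symbol (15097) were named through the platform annotation and updated by Entrez identifier with RefSeq (GRCr8; 15067 matched). For the 499 genes with several, the set with the highest mean was kept, which gave 14324 genes; 323 sets with several symbols and 11922 with none were used only in an alternative.

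limma 3.58.1 (R 4.3.3) fitted 1 mean per group to all 16 arrays (8 residual and 7.41 prior degrees of freedom), and 13 contrasts were adjusted by Benjamini-Hochberg over all genes; called means an adjusted p under 0.05. Folds are ratios of geometric means, and errors after a change are moderated standard errors. Low values include background, so folds of Hk2, of Gys1 (the lowest mean of the measured members, 6.267) and of Pygl in F344 may be compressed. The number of arrays limits the precision. The fits and the permutation test were tested on simulated data. Members, lists and named genes (all members, listed pathway genes called in an oxygen effect, the nearest 3 by r) were chosen with earlier results of these data known.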

Additional observations from a re-analysis of the deposited data

Results flagged for a closer look

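The oxygen effect of 3 members differed between day 5 and day 6 by the test of that difference. Day 6 minus day 5, over both strains, it was 1.34 for Pfkfb3, 1.10 for Pygl and 0.93 for Pfkl on the log2 scale. In SD alone it was 1.49 for Pygl, 1.22 for Pfkfb3 and 1.18 for Pfkl, and in F344 1.46 for Pfkfb3.

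Of 5 isozyme pairs, 4 passed the permutation test of the day difference in the oxygen effect on them. Its null is no oxygen effect, on either day, on the difference between the isozymes. Passing therefore does not by itself show that this effect differs between days. The day difference was 1.56 for Pygl minus Pygb, 0.87 for Pfkl minus Pfkm, 0.66 for Pfkp minus Pfkm and -0.29 for Aldoc minus Aldoa. The calls of Pfkp minus Pfkm and Aldoc minus Aldoa were lost in most leave-one-out fits.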

How the results depend on the processing

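With an array left out, a lone array is assumed to vary like the other groups. The count of members called then ranged from 2 to 6 for day 5 over both strains (6 with all arrays), 0 to 3 for SD day 5, 0 to 2 for SD day 6 and for day 6 over both strains, and 0 to 1 for F344 day 6. It ranged from 3 to 6 for the day difference over both strains, 0 to 4 in SD and 0 to 2 in F344. It ranged from 0 to 1 for the strain difference of day 6, 1 to 2 for the strains in room air and 0 to 1 for the days in room air. Pfkp minus Pfkm ranged from 0.55 to 0.77 and Aldoc minus Aldoa from -0.35 to -0.23.

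With only the arrays of the groups compared, the count was 1 in SD on day 5, 5 over both strains on day 5, 1 over both strains on day 6 and 0 for the day difference in F344. Median centring gave 2 for the strains in room air and 4 for the day difference over both strains, and the filter on dim genes also gave 4 for that difference. Over both strains on day 5 the count was 4 with every probe set and 5 with the trended, robust prior. The replicate block left 4 of 6 calls of day 5 over both strains, with Hk2 at an adjusted p of 0.0748 and Pfkl at 0.051, and no other count of member calls changed. Pair differences of the 28 pairs of groups correlated between -0.29 and 0.52, with 8 over 0.1. The highest was between the SD room air groups of day 5 and day 6, and the numbers were not taken as pairing the samples. No call reversed. The causes were not tested.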
